A study of Mus musculus with 6 samples.

Results

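The 10 glutathione transferase genes followed here across 3 established mouse mammary epithelial cell lines were Gsta3, Gsta4, Gstm1, Gstm2, Gstm5, Gstp1, Gstt1, Gsto1, Mgst1 and Mgst3. They were chosen by gene symbol with earlier results of these data known, starting from Gsta3 for its high level in BC44. All 10 were found among the 11417 genes listed. The libraries profiled poly(A) RNA of cells grown on dishes, 2 libraries for each of the lines BC44, HC11 and C57MG. BC44 was grown in RPMI1640 with 10% serum and 5 µg/ml insulin, HC11 in the same with 10 ng/ml EGF added, and C57MG in DMEM with 10 µg/ml insulin and 10% serum. All were harvested 2 days after plating. Line and medium therefore cannot be told apart, each line is a single line, and nothing in the labels says whether the 2 libraries came from separate cultures, so p-values measure only the spread between these libraries.

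Glutathione transferases join the tripeptide glutathione to reactive, electrophilic compounds, which makes them more soluble and ready for export. The soluble enzymes fall into classes named alpha (Gsta), mu (Gstm), pi (Gstp), theta (Gstt) and omega (Gsto), while Mgst1 and Mgst3 belong to a separate family of membrane proteins. Several of their promoters are known to carry antioxidant response elements, which bind NRF2, and xenobiotic response elements, which bind the aryl hydrocarbon receptor.

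The 250 bases before the annotated start site are shown for 6 members that differ in pattern: Gsta3, high in BC44, Gstm1, Gstm2, Gstp1 and Mgst1, high in C57MG, and Gstm5, which varied little although it lies in 1 gene cluster with Gstm1 and Gstm2. The sequences are RefSeq's on build GRCm38.p6 and read 5′ to 3′ on the strand that the table gives. The bases after the start site were found in a GENCODE transcript of the same gene for the windows shown except that of Gsta3. For Gsta3 they were sought and not found, so its orientation and start site were not borne out in this way. Capitals mark matches to TGACNNNGC (the core of the antioxidant response element), TGANTCA (an AP-1 site) and GCGTG (the core of the xenobiotic response element), searched on either strand.
Gsta3 chr1:21240335-21240584 (+ strand): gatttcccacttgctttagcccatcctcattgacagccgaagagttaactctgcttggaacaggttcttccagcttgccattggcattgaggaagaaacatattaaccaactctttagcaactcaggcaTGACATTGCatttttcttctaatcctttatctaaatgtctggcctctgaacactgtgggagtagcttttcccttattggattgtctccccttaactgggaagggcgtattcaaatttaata
Gstm1 chr3:108017974-108018223 (- strand): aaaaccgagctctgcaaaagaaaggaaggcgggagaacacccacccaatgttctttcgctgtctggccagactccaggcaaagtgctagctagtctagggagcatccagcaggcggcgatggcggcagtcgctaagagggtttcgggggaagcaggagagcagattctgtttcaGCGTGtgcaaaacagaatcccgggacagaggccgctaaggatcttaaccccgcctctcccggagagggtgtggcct
Gstm2 chr3:107986421-107986670 (- strand): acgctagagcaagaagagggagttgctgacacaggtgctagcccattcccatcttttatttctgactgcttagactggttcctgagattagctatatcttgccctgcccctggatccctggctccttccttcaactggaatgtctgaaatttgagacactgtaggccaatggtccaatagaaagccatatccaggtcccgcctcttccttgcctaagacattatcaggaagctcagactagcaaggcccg
Gstm5 chr3:107895604-107895853 (+ strand): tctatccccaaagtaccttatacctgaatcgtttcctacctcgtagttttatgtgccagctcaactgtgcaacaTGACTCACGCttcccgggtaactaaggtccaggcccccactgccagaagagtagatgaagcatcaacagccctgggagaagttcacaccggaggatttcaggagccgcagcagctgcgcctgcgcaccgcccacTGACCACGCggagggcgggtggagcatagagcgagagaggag
Gstp1 chr19:4037913-4038162 (- strand): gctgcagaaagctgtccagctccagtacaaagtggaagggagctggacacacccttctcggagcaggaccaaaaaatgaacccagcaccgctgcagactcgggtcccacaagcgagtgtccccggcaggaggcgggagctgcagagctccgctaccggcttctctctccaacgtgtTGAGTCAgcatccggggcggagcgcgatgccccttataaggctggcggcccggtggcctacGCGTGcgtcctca
Mgst1 chr6:138140277-138140526 (+ strand): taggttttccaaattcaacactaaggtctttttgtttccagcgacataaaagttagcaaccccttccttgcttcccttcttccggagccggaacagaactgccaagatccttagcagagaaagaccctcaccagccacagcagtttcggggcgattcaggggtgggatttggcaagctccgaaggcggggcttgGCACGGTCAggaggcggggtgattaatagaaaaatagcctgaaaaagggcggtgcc
Of the 10 members, 9 had a promoter in the table, with 11 start sites in all. The antioxidant core matched 3 of the 11, in Gsta3 at 121 bases before the start, in Gstm5 at 42 and in Mgst1 at 56, against 10.2% of 32851 promoters of the same length. The AP-1 letters matched 2 of 11 (Gstm5 and Gstp1, against 6.75%) and the xenobiotic core 5 of 11, which include both overlapping windows of Gstm1 (against 28.2%). In Gstm5 matches of different motifs share bases. A match here describes letters only.

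The label of the lines was checked against marker genes. Of 16 epithelial markers 14 were analysed, and their summed level was 5638 to 5898 RPKM (reads per kilobase of gene length per 1000000 reads) in BC44, 2685 to 3592 in HC11 and only 65.8 to 143.9 in C57MG. Epcam, Cdh1, Cldn3, Cldn4, Esrp1 and Ovol1 were listed at 0 in C57MG replicate 2, and Krt18 and Cldn3 in C57MG replicate 1 and in both BC44 libraries. Of 16 mesenchymal markers 15 were analysed, with sums of 384.6 to 477.6 RPKM in BC44, 336.3 to 383.8 in HC11 and 7618 to 7794 in C57MG, where only Dcn was at 0. Under its label of mammary epithelial cells, C57MG reached 1 RPKM for 5 and 1 of the 14 epithelial markers in replicates 1 and 2. A faint signal of another line was also measurable. In BC44 replicate 2, 70 genes private to C57MG stood at a median of 2.02% of their C57MG level, 97.1% of them within 2-fold of that share. For BC44 replicate 1 the same figure was 0.658% over 71 genes, 64.8% of them within 2-fold. In C57MG replicate 1, 10 genes private to BC44 stood at a median of 0.692%, 90.0% of them within 2-fold, whereas 7 of 10 were at 0 in replicate 2. Genes private to BC44 had no common share in HC11, where 64.7% and 47.1% of 17 lay within 2-fold of their median. Genes private to C57MG had none either, at medians of 0.239% and 0.358% in HC11 replicates 1 and 2. Of these 62 and 67 genes, 22.6% and 20.9% lay within 2-fold.

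The family as a whole was most abundant in C57MG and least abundant in HC11. Summed over the 10 genes, the C57MG libraries reached 1381 and 1319 RPKM, those of BC44 439.9 and 449.0, and those of HC11 296.3 and 252.9. The lines did not overlap. In such bulk RNA, fewer cells expressing a gene and less RNA per cell cannot be told apart. These sums were 0.414% to 0.427% of all listed RPKM in C57MG, 0.134% to 0.135% in BC44 and 0.0730% to 0.0866% in HC11. RPKM is per length, so genes may be compared, as far as the authors' gene lengths hold. Without Gstm1 and Gstp1 the sums fell to 393.5 and 355.5 RPKM in C57MG, to 297.6 and 315.1 in BC44, and to 134.6 and 123.1 in HC11, so these genes carried most of the difference of C57MG from BC44.

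**Figure D1:**
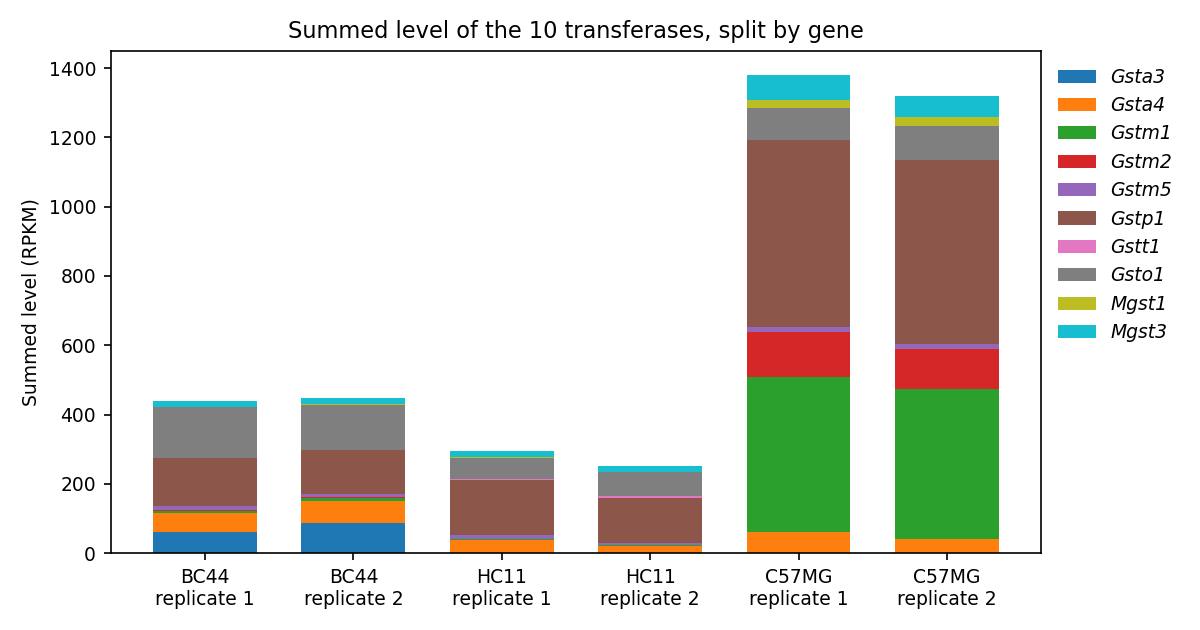
Stacked bars give the summed RPKM (vertical axis) of the 10 transferases in each of the 6 libraries (horizontal axis), split by gene. C57MG reaches 1319 to 1381 RPKM through Gstp1, Gstm1 and Gstm2, while BC44 alone shows a visible Gsta3 segment.

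Gstp1 was among the leading transferases of every line, and the genes beside it varied. In BC44, Gsto1 (32.9% and 29.1% of the family's summed RPKM in replicates 1 and 2), Gstp1 (31.4% and 27.8%) and Gsta3 (14.0% and 19.5%) led, followed by Gsta4 (12.5% and 13.9%). In HC11, Gstp1 alone made up 53.5% and 50.7%, with Gsto1 next at 20.4% and 27.3%. In C57MG, Gstp1 (39.0% and 40.3%) and Gstm1 (32.5% and 32.7%) led, ahead of Gstm2 (9.32% and 8.95%). Gsto1, among the leaders in BC44, was only 6.84% and 7.34% of the C57MG sum.

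**Figure D2:**
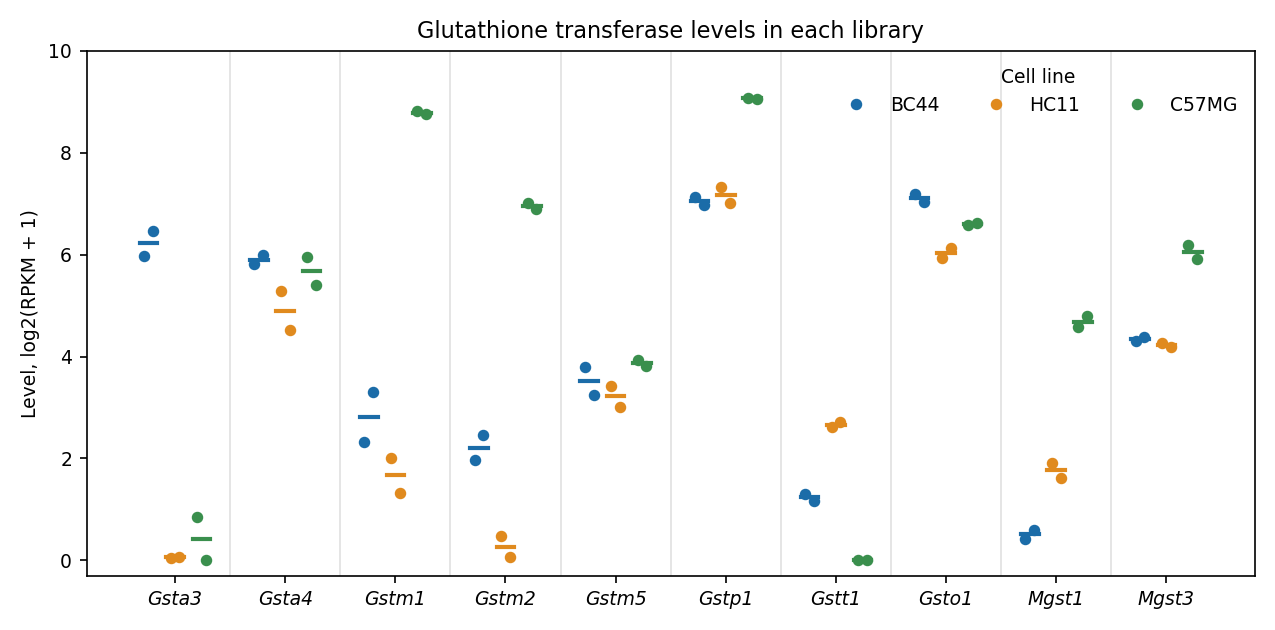
Points give log2(RPKM + 1) (vertical axis) of each transferase (horizontal axis) in each library, coloured by line, and bars the mean of 2 libraries. Gsta3 stands high in BC44 alone, 6 genes have their highest mean in C57MG, and Gstt1 sits at 0 in both C57MG libraries.

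Among the alpha class, Gsta3, which in mice is known to detoxify the epoxide of aflatoxin, was at 61.5 and 87.7 RPKM in BC44, at 0.039 and 0.050 in HC11, with 0.795 and 0 in C57MG. Because this level chose the family, it is given as a description without a test. The HC11 values correspond to an estimated 3.1 reads in each library. The ratio of means of BC44 over HC11 was 1680, with a 95% counting interval of 770 to 4570 from 6 estimated reads in HC11. In C57MG the replicates disagreed: replicate 1 stood at 1.07% of the BC44 mean, beside the 0.692% median of BC44-private genes in that library, and replicate 2 was listed at 0. With that signal subtracted, the log2 difference of Gsta3 between BC44 and C57MG was 6.04, against 5.80 as deposited. The log2 difference of Gsta3 between HC11 and C57MG was -0.36 and turned to 0.06 without C57MG replicate 1, so no order of these lines can be read. It passed the filter on low values through BC44 alone.

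Gsta4, an alpha enzyme known for clearing hydroxynonenal, a product of lipid peroxidation, did not follow Gsta3. It was at 55.0 and 62.4 RPKM in BC44, 38.0 and 21.9 in HC11, with 60.5 and 41.2 in C57MG. HC11 lay below the other lines, and BC44 and C57MG overlapped. On the log2(RPKM + 1) scale, on which all fold changes here are given and which understates low genes, BC44 exceeded HC11 by 1.00 (SE 0.26, limma adjusted p = 0.0170). HC11 lay below C57MG by -0.77 (SE 0.26, adjusted p = 0.0308), and BC44 against C57MG was 0.22 (SE 0.26, adjusted p = 0.464). Both calls for Gsta4 hung on single libraries. Against HC11 the BC44 difference had adjusted p = 0.0677, 0.106 and 0.0865 without BC44 replicate 1, BC44 replicate 2 and HC11 replicate 2. HC11 against C57MG had adjusted p = 0.0615, 0.0616, 0.182 and 0.187 without BC44 replicate 1, BC44 replicate 2, C57MG replicate 1 and HC11 replicate 2, and 0.0619 on only the 4 libraries compared.

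The mu genes Gstm1 and Gstm2 were far higher in C57MG than in either other line. Gstm1, a mu enzyme that is abundant in mouse liver, was at 448.1 and 431.3 RPKM in C57MG, 3.97 and 8.84 in BC44, with 3.05 and 1.502 in HC11. Every C57MG value was far above the rest. The log2 difference was -5.98 (SE 0.33, limma adjusted p = 2.56e-06) for BC44 against C57MG and -7.11 (SE 0.33, adjusted p = 1.23e-06) for HC11 against C57MG, or mean ratios of 68.6 and 193. The C57MG signal was subtracted from BC44 replicate 2, and the BC44 signal from C57MG replicate 1. With this subtraction Gstm1 in BC44 against C57MG was -7.63 (adjusted p = 3.46e-05). BC44 also exceeded HC11 by 1.14 (SE 0.33, adjusted p = 0.0238), with no overlap. Gstm1 in the BC44 libraries was 0.904% and 2.01% of its C57MG mean, beside medians of 0.658% and 2.02% for C57MG-private genes. In the HC11 libraries it was 0.694% and 0.342%, beside medians of 0.239% and 0.358%. The part of C57MG signal in these HC11 values was not tested. After the same subtraction, which left BC44 replicate 1 and the HC11 libraries unchanged, the difference between BC44 and HC11 was -0.51 (adjusted p = 0.555). It also missed the threshold without BC44 replicate 2 (0.64, adjusted p = 0.124), without HC11 replicate 2 (0.79, adjusted p = 0.156) and with robust variance (adjusted p = 0.0647).

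Gstm2, the next mu enzyme, had the same order. It was at 128.7 and 118.1 RPKM in C57MG, 2.93 and 4.47 in BC44, with 0.385 and 0.042 in HC11, or an estimated 12.0 and 1.0 reads. No line overlapped another. The log2 differences were -4.74 (SE 0.19, limma adjusted p = 5.74e-07) for BC44 against C57MG, -6.69 (SE 0.19, adjusted p = 2.4e-07) for HC11 against C57MG and 1.95 (SE 0.19, adjusted p = 0.000168) for BC44 against HC11. In BC44, Gstm2 stood at 2.38% and 3.62% of its C57MG mean, above the private-gene median of each library. In HC11 it stood at 0.312% and 0.034%, beside medians of 0.239% and 0.358%. With the same subtraction as for Gstm1, the BC44 difference from HC11 was 1.51 (adjusted p = 0.000538). Gstm5, another mu gene, was nearly level, at 12.8 and 8.43 RPKM in BC44, 9.69 and 7.10 in HC11, with 14.2 and 13.1 in C57MG. BC44 and HC11 overlapped. Only HC11 against C57MG passed (-0.66, SE 0.20, limma adjusted p = 0.0202), and it did not pass without C57MG replicate 1, C57MG replicate 2 or HC11 replicate 2 (adjusted p = 0.0964, 0.0591 and 0.134). BC44 against C57MG (-0.36, adjusted p = 0.140) passed without BC44 replicate 1 (-0.64, adjusted p = 0.0292), and BC44 against HC11 was 0.29 (adjusted p = 0.267).

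**Figure D3:**
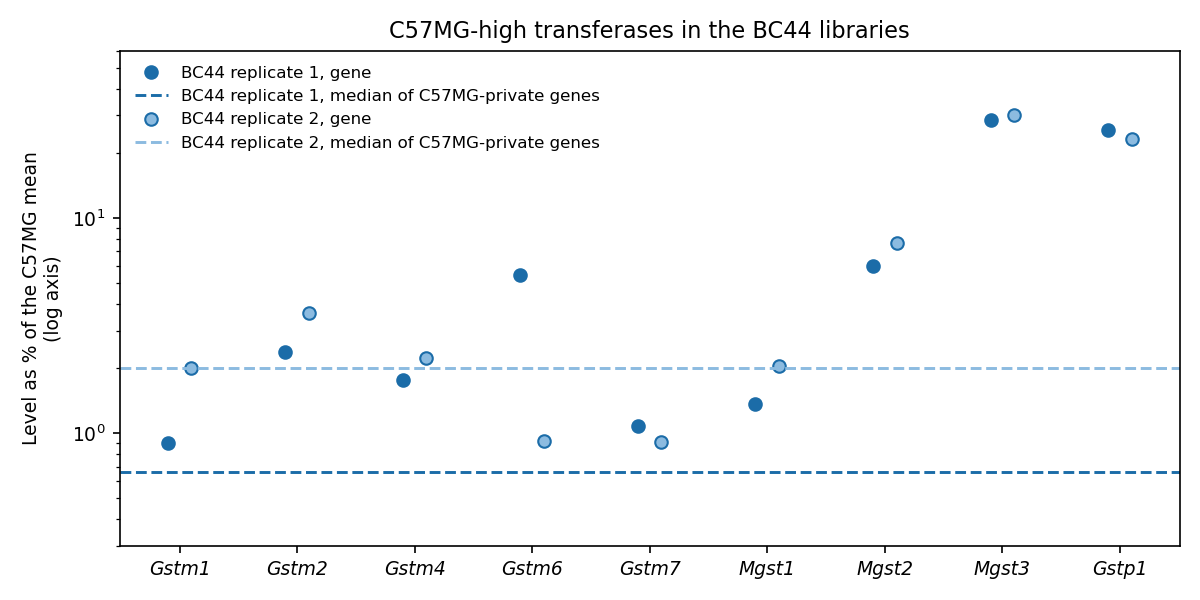
Points give the level of 9 transferases in BC44 replicates 1 and 2 as a percentage of the C57MG mean (log axis), and dashed lines the median percentage of genes private to C57MG in the same libraries. Gstm1 lies close to the lines in both libraries (0.904% and 2.01%), whereas Gstp1 and Mgst3 lie above 20%.

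Gstp1, the pi enzyme and one of the most widely expressed transferases of epithelia and tumours, was the most abundant member in C57MG and HC11. It was at 539.1 and 531.9 RPKM in C57MG, 138.3 and 125.0 in BC44, with 158.6 and 128.3 in HC11. C57MG stood apart, and BC44 and HC11 overlapped. The mean of C57MG was 4.07 times that of BC44 (log2 difference -2.02, SE 0.11, limma adjusted p = 2.61e-06) and 3.73 times that of HC11 (-1.90, SE 0.11, adjusted p = 4.09e-06), while BC44 against HC11 was -0.12 (SE 0.11, adjusted p = 0.422). Of the 50-base windows of the longest Gstp1 transcript, 62.3% also occur in the neighbouring gene Gstp2, so reads of the 2 genes may have been split or dropped, depending on the authors' counting. The same share was 23.1% for Gstm1, 10.1% for Gstm5, 9.36% for Gstm2 and 0.437% for Gsta3. It was 0 for Gsta4, Gstt1, Gsto1, Mgst1 and Mgst3.

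Gstt1, a theta enzyme that acts on small halogenated hydrocarbons, ran against the mu and pi genes. It was at 5.15 and 5.53 RPKM in HC11 and 1.48 and 1.24 in BC44, and was listed at 0 in both C57MG libraries. No line overlapped another. HC11 was at least 45.1-fold and BC44 at least 11.5-fold higher than C57MG, taking the floor of 3 reads per library (a mean of 0.118 RPKM) for C57MG. All 3 contrasts passed: -1.43 (SE 0.10, limma adjusted p = 3.52e-05) for BC44 against HC11, 1.24 (SE 0.10, adjusted p = 2.21e-05) for BC44 against C57MG and 2.66 (SE 0.10, adjusted p = 5.87e-07) for HC11 against C57MG. With an estimated 32.7 and 32.8 reads in the BC44 libraries, the BC44 level rests on few reads. These bounds cover counting error only.

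Gsto1, an omega enzyme that reduces dehydroascorbate and removes glutathione from proteins, was highest in BC44 like Gsta3, but within a narrow range. It was at 144.7 and 130.5 RPKM in BC44, 94.5 and 96.7 in C57MG, with 60.3 and 69.1 in HC11. The lines did not overlap. The differences were 1.08 (SE 0.09, limma adjusted p = 8.85e-05) for BC44 against HC11, 0.52 (SE 0.09, adjusted p = 0.00151) for BC44 against C57MG and -0.56 (SE 0.09, adjusted p = 0.00107) for HC11 against C57MG. These are mean ratios of 2.13, 1.44 and 1.48.

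The membrane enzymes were both highest in C57MG. Mgst1, a transferase and peroxidase of the endoplasmic reticulum and outer mitochondrial membrane, was at 22.8 and 26.9 RPKM in C57MG, 2.78 and 2.08 in HC11, with 0.340 and 0.512 in BC44. The lines were fully separate. The differences were -4.18 (SE 0.14, limma adjusted p = 3.45e-07) for BC44 against C57MG, -2.92 (SE 0.14, adjusted p = 1.85e-06) for HC11 against C57MG and -1.26 (SE 0.14, adjusted p = 0.000368) for BC44 against HC11. In BC44 it stood at 1.37% and 2.06% of the C57MG mean, next to medians of 0.658% and 2.02% for private genes. After the subtraction Mgst1 differed between BC44 and HC11 by -1.55 (adjusted p = 0.000416). Mgst3, which can also form leukotriene C4, was at 72.0 and 59.5 RPKM in C57MG, 18.9 and 19.9 in BC44, with 18.3 and 17.3 in HC11. C57MG was above either line, with -1.71 for BC44 against it (SE 0.11, limma adjusted p = 4.77e-06) and -1.82 for HC11 against it (SE 0.11, adjusted p = 3.93e-06). BC44 against HC11 was 0.12 (SE 0.11, adjusted p = 0.397).

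**Figure D4:**
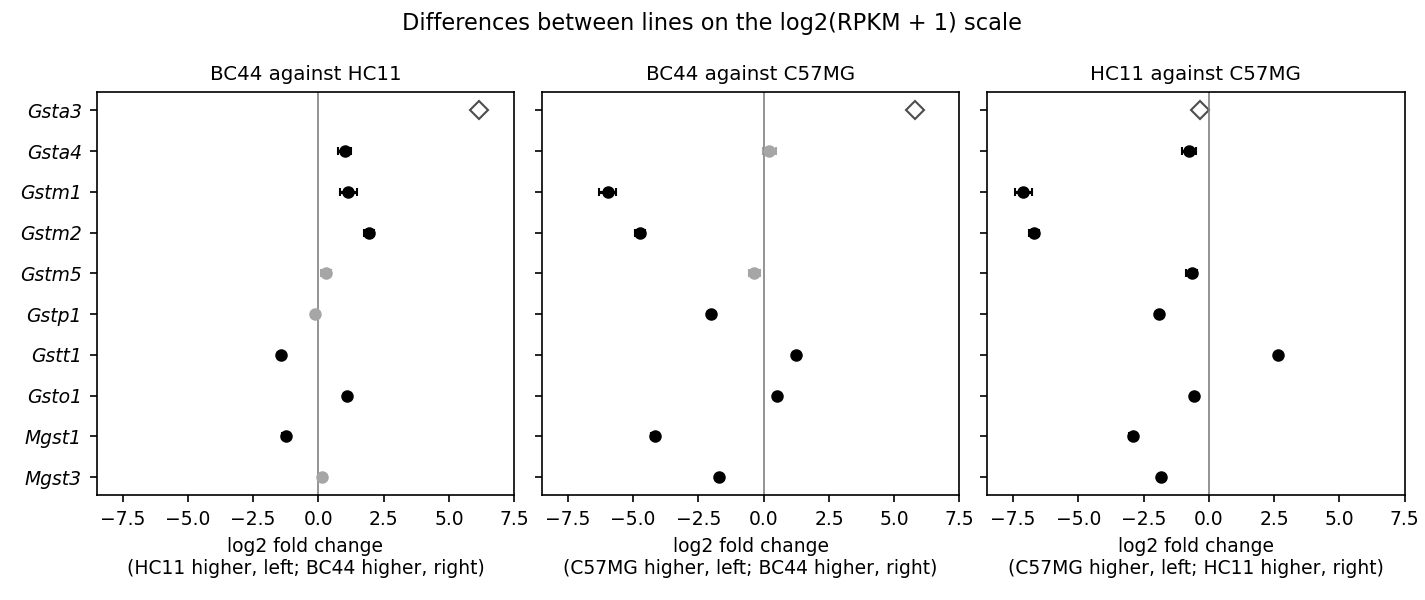
Points give the log2 fold change on the log2(RPKM + 1) scale (horizontal axis) of each transferase (vertical axis) in the 3 contrasts, with bars of 1 standard error. Black points passed, grey points did not, and open diamonds are Gsta3, which was not tested. In HC11 against C57MG all 9 tested members passed and only Gstt1 lies to the right of 0.

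Counted over the 9 members other than Gsta3, which all passed the filter on low values, 4 were higher in BC44 than in HC11 and 2 were higher in BC44 than in C57MG. Against HC11, 6 of 9 passed, 4 higher in BC44 (Gsta4, Gstm1, Gstm2 and Gsto1) and 2 in HC11 (Gstt1 and Mgst1). Of all 10759 genes tested, 47.7% passed there, 24.7% higher in BC44 and 23.0% higher in HC11. Without BC44 replicate 2, or without HC11 replicate 2, the count of 6 fell to 4, as Gsta4 and Gstm1 were lost. Against C57MG, 7 of 9 passed, 2 higher in BC44 (Gstt1 and Gsto1) and 5 in C57MG, where 71.7% of all genes passed, 37.5% higher in BC44 and 34.1% in C57MG. Only Gsto1 was higher in BC44 than in both other lines by this test. Between HC11 and C57MG, 9 of 9 passed, 1 higher in HC11 (Gstt1) and 8 in C57MG, against a background of 70.5%, with 37.4% higher in HC11 and 33.2% in C57MG. The shares of calls in these contrasts are thus high for all genes, and the contrasts share libraries.

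Large differences were common among the members, but these were chosen with earlier results of these data known, so the shares below are description. Differences of at least 2-fold that passed were found for 5 of 9 members in BC44 against HC11 (12.5% of all genes), 3 toward BC44 (5.42%) and 2 toward HC11 (7.09%). With C57MG as the second line they were found for 6 of 9, both from BC44 (29.8%) and from HC11 (27.0%). Of the 6 in each contrast with C57MG, 5 were higher in C57MG: Gstm1, Gstm2, Gstp1, Mgst1 and Mgst3, against 15.0% of all genes in the first and 12.9% in the second. The median log2 fold change of the 9 members was 0.29, -1.71 and -1.82 in the 3 contrasts, beside 0.02, 0.04 and 0.03 over all genes. In the same contrasts 7, 8 and 9 of the 9 had libraries without overlap, as had 73.0%, 87.9% and 86.2% of all genes. C57MG, where Gstm1, Gstm2, Gstp1, Mgst1 and Mgst3 were highest, also had the highest mesenchymal and the lowest epithelial marker sum, and the part of either in the result was not tested. BC44 had higher sums than HC11 for both marker lists. For the mesenchymal list the gap was narrow, with 384.6 and 477.6 RPKM in BC44 against 336.3 and 383.8 in HC11. The C57MG signal measured in the BC44 libraries was not subtracted from these sums, and its part in them was not tested.

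By order of means, Gstm1, Gstm2, Gstm5, Gstp1, Mgst1 and Mgst3 were highest in C57MG, Gsta4 and Gsto1 in BC44, beside Gsta3, which was chosen for it, and Gstt1 in HC11. HC11 had the lowest mean for Gsta4, Gstm1, Gstm2, Gstm5, Gsto1 and Mgst3. Neighbours in that order that were not shown to differ were BC44 and C57MG for Gsta4 and Gstm5, BC44 and HC11 for Gstm5, Gstp1 and Mgst3. The genes whose pattern lay closest to Gsta3 over the 6 libraries, by distance in centred log2(RPKM + 1) among 10757 other tested genes, were Igfbp2 (0.94), Mme (1.04) and Fxyd2 (1.15). Igfbp2, a binding protein of insulin-like growth factors, was at 127.8 and 124.1 RPKM in BC44. Mme, the cell-surface peptidase CD10, was at 91.8 and 56.7, and Fxyd2, a regulator of the sodium pump, at 44.9 and 35.4. Each was under 1 RPKM in every other library. The closest transferases were Gsto1 (distance 6.03, rank 866) and Gsta4 (6.24, rank 1316), and the farthest Gstm1 (11.84, rank 10722).

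Relatives of the members were examined by class. Of 28 further transferase and related membrane or chloride-channel genes, 17 were analysed and 15 tested. Of these, 10 passed between BC44 and HC11 (2 higher in BC44, 8 in HC11), 12 between BC44 and C57MG (3 and 9) and 9 between HC11 and C57MG (2 and 7), with medians of -0.35, -0.47 and -0.14. Over all genes 47.7%, 71.7% and 70.5% passed, with medians of 0.02, 0.04 and 0.03. Toward the line named first 24.7%, 37.5% and 37.4% passed, and toward the second 23.0%, 34.1% and 33.2%. The counts of 15 are near or below the all-gene share in the contrasts with C57MG and above it in BC44 against HC11. They include genes that passed the filter on low values through a single line. The mu genes Gstm4, Gstm6 and Gstm7 were at 4.70 and 4.33, 2.73 and 3.59, and 6.88 and 8.91 RPKM in C57MG. None of the 3 exceeded 0.736 RPKM in any other library. BC44 lay below C57MG by -2.34, -1.91 and -3.03 for Gstm4, Gstm6 and Gstm7 and HC11 by -1.77, -2.03 and -3.12. These 3 passed the filter on low values through C57MG alone, so their differences are described without limma adjusted p-values. In the BC44 libraries Gstm7 stood at 1.08% and 0.912% of its C57MG mean, beside medians of 0.658% and 2.02% for C57MG-private genes. Mgst2, a membrane enzyme, was at 6.50 and 7.85 RPKM in C57MG, 2.02 and 1.53 in HC11 and 0.430 and 0.548 in BC44, the order of Mgst1. Ltc4s and Alox5ap, the leukotriene C4 synthase and the protein that supplies its pathway, were highest in C57MG too (15.0 and 13.9, and 12.9 and 8.98 RPKM). For Ltc4s no other library exceeded 0.186 RPKM (-3.72 and -3.79 for BC44 and HC11 against C57MG). Ltc4s also passed the filter on low values through C57MG alone and is described without a p-value. For Alox5ap the difference between HC11 and C57MG was -0.68 (adjusted p = 0.0243), and it was not past the threshold without C57MG replicate 1 (0.160), without HC11 replicate 1 (0.153) or with a pseudocount of 0.1 (0.0550).

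Gstt3, the theta neighbour of Gstt1, shared its order: 7.91 and 8.16 RPKM in HC11, 4.84 and 4.08 in BC44, with 0.084 and 0 in C57MG. All 3 contrasts passed (-0.73, 2.39 and 3.12, limma adjusted p = 0.00159, 1.23e-06 and 4.79e-07), although with a pseudocount of 0.1 BC44 against HC11 did not (-0.84, adjusted p = 0.0558). Gsto2, beside Gsto1, did not share that gene's order and was highest in HC11, at 1.25 and 1.44 RPKM against 0.176 and 0.074 in BC44. Gstz1, the zeta enzyme of tyrosine breakdown, was higher in BC44 than in HC11 (0.79, SE 0.13, limma adjusted p = 0.00188) and C57MG (0.65, SE 0.13, adjusted p = 0.00240), at 24.5 and 21.7 RPKM against 14.6 and 11.3, and 14.5 and 14.1. Gstk1, a mitochondrial and peroxisomal enzyme, and Gstcd passed in no contrast, with log2 fold changes between -0.35 and 0.07. Clic3 was highest in BC44 (3.31 and 1.59 RPKM), while Clic1 and Clic4, chloride channel proteins with a transferase fold, were lowest there (73.1 and 67.6, and 73.1 and 73.8 RPKM). The Clic1 difference from HC11 (-0.35, adjusted p = 0.00956) missed the threshold without BC44 replicate 2 (0.0606). Ptges2, a prostaglandin synthase, was lower in BC44 than in HC11 (-0.52, adjusted p = 0.00544) and C57MG (-0.45, adjusted p = 0.00562), the latter not without C57MG replicate 1 (0.0546).

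Position along the chromosome was compared by RefSeq gene order. Gsta3 and Mgst3 lie on chromosome 1, Gsta4 on 9, Gstt1 on 10, Mgst1 on 6, and Gstp1 and Gsto1 on 19. The mu genes form 1 cluster on chromosome 3, where the listed genes run Gstm5, Gstm7, Gstm6, Gstm2, Gstm1, Gstm4. Of these 6, 5 were higher in C57MG by at least 1.77 in log2 size against either line, and Gstm5 at the edge was not. Gstm4, Gstm6 and Gstm7 among them passed the filter on low values through C57MG alone. On the Gstm5 side the next listed gene was 4933431E20Rik, at means of 2.22 RPKM in C57MG, 0.499 in BC44 and 0.662 in HC11 (-1.1 and -0.96). Of the 50-base windows of Gstm5, 10.1% also occur in it. Beyond it lay Csf1, a macrophage growth factor, and Ahcyl1 (-2.11 and -1.68). Csf1 was at a mean of 346 RPKM in C57MG against 4.29 in BC44 and 3.68 in HC11 (-6.18 and -6.29, limma adjusted p = 9.19e-06 and 9.73e-06). On the other side Ampd2 (-0.44 and -0.36) and Gnai3 (0.15 and 0.19) differed little. Around Gsta3 on chromosome 1, none of the 3 listed genes on either side approached its difference, and the largest for BC44 against HC11 was 0.99 for Tmem14a. Beside Gsta4 on chromosome 9, the third listed gene on 1 side was Gclc, the catalytic subunit of the enzyme that starts glutathione synthesis. Like Gsta4, Gclc and Fbxo9 had their lowest mean in HC11. Elovl5, on the same side, had its lowest mean in BC44, and Mto1, Eef1a1 and Slc17a5 on the other side had theirs in C57MG. Csf1, Ahcyl1, 4933431E20Rik, Ampd2, Gnai3, Tmem14a and Gclc were picked after their values were seen.

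**Figure D5:**
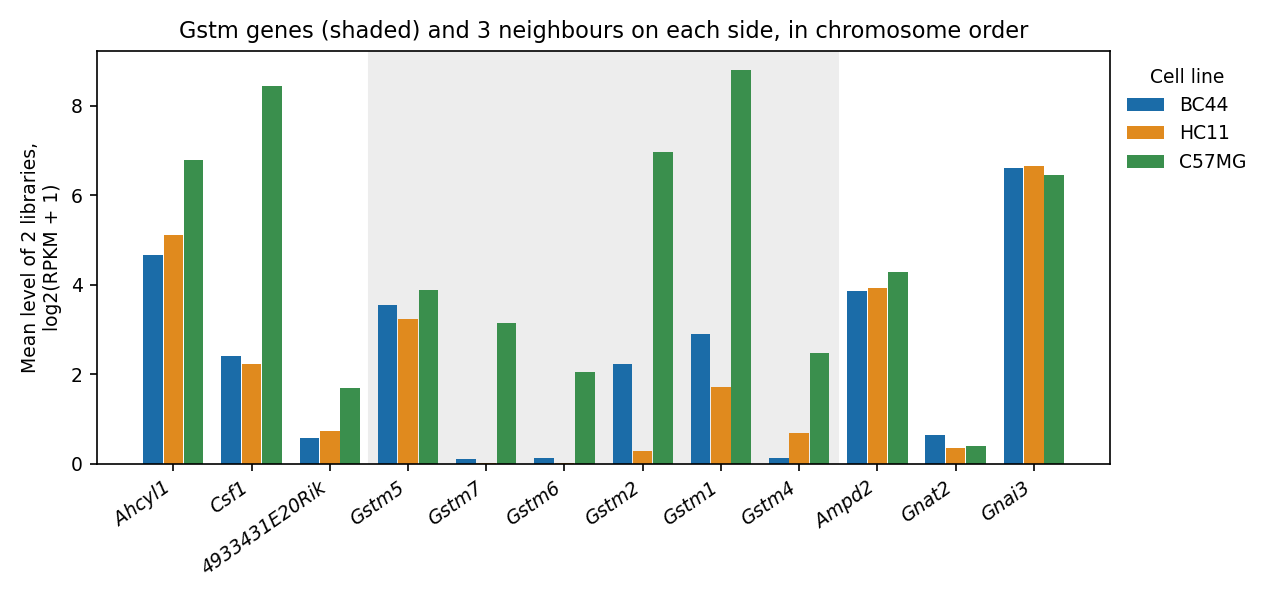
Bars give the log2 of the mean RPKM of 2 libraries plus 1 (vertical axis) for the listed Gstm genes (shaded) and 3 listed neighbours on each side, in chromosome order, for the 3 lines. The C57MG bars exceed the others for Gstm7, Gstm6, Gstm2, Gstm1 and Gstm4, and also for Csf1, Ahcyl1 and 4933431E20Rik, but little for Gstm5.

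Genes that supply glutathione differed between the lines one by one. Of 22 genes of synthesis, supply and turnover, 19 were tested. Of these, 12 passed between BC44 and HC11 (9 toward BC44), 16 from BC44 to C57MG (9 toward BC44) and 17 from HC11 to C57MG (8 toward HC11), with medians of 0.28, 0.33 and 0.21, beside 47.7%, 71.7% and 70.5% of all genes. Of all genes, 24.7%, 37.5% and 37.4% passed toward the line named first. Gclc was at 61.3 and 67.6 RPKM in BC44, 59.5 and 63.3 in C57MG, with 17.3 and 18.3 in HC11 (1.80 for BC44 against HC11, SE 0.08, limma adjusted p = 5e-06). Cth, which makes cysteine from cystathionine, was at 17.4 and 17.0 RPKM in BC44 and 25.6 and 21.5 in HC11, but at 0.049 and 0 in C57MG (4.15 and 4.58, adjusted p = 2.71e-07 and 1.9e-07). Cbs, the step before it, was at 8.65 and 7.27 RPKM in BC44 and at most 0.369 elsewhere (3.15 against HC11 and 2.80 against C57MG). Toward C57MG, Ggt7, a gamma-glutamyltransferase family gene, was at 8.73 and 7.77 RPKM, and Anpep, the aminopeptidase N of the cell surface, at 13.5 and 16.1. Ggt7 did not exceed 0.278 RPKM and Anpep did not exceed 2.20 in other libraries. Cbs passed the filter on low values through BC44 alone and Ggt7 through C57MG alone, so they are described without p-values but remain in the counts. Anpep also passed between BC44 and HC11 (1.45, adjusted p = 0.000287).

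Among 14 tested genes of glutathione-dependent reduction, 8, 13 and 10 passed in the 3 contrasts, taken in the same order, of which 5, 7 and 6 were higher in the line named first. The shares over all genes were 47.7%, 71.7% and 70.5%, close to the first and last of these counts. Toward the line named first they were 24.7%, 37.5% and 37.4%. Gpx2, a glutathione peroxidase of epithelia, was at 342.5 and 343.7 RPKM in BC44, 70.0 and 46.5 in HC11, with 2.65 and 0 in C57MG. BC44 exceeded HC11 by 2.57 (SE 0.52, limma adjusted p = 0.00537), a call lost with a pseudocount of 0.1 (0.157) and without HC11 replicate 2 (0.0522). BC44 exceeded C57MG by 7.49 and HC11 exceeded it by 4.93 (adjusted p = 8.57e-06 and 9.5e-05). With single libraries left out these differences ranged from 6.56 to 8.43 and from 3.99 to 5.86. The part of the BC44 signal measured in C57MG replicate 1 in its value of 2.65 was not tested. Glrx, the small disulfide reductase glutaredoxin, was low in BC44, at 4.02 and 4.26 RPKM against 76.6 and 105.8 in HC11 and 44.9 and 43.4 in C57MG (-4.15 and -3.14, adjusted p = 1.72e-06 and 1.03e-06). Glo1, which clears methylglyoxal, was highest in BC44 (135.2 and 142.8 RPKM, 1.02 over HC11 and 1.90 over C57MG, adjusted p = 5.87e-05 and 7.46e-07). Between HC11 and C57MG, Gpx4, the peroxidase of membrane lipids, was higher in C57MG (-1.35, adjusted p = 4.91e-06) and Gsr, which regenerates glutathione, in HC11 (1.11, adjusted p = 8.34e-06).

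Of 6 tested exporters of glutathione conjugates, 4 passed in each contrast, with 1, 1 and 2 higher in the line named first. That is below the 71.7% and 70.5% of all genes in the contrasts with C57MG and above the 47.7% in BC44 against HC11. Toward the line named first, 24.7%, 37.5% and 37.4% of all genes passed. Abcc1, the best known of these pumps, was lowest in BC44, at 12.8 RPKM in each library against 25.5 and 33.0 in HC11 and 25.6 and 26.1 in C57MG (-1.12 and -0.96, limma adjusted p = 0.000276 and 0.00023). Abcc5 was highest in C57MG (11.8 RPKM in each library, -1.65 for BC44 and -1.82 for HC11), and Abcg2 was listed at 0 in both C57MG libraries and was at 1.53 and 1.41 RPKM in HC11. Abcg2 passed the filter on low values through HC11 alone, but is in the counts of all 3 contrasts. It was the 1 exporter counted as higher in BC44 than in C57MG, at 0.151 and 0.241 RPKM in BC44. Abcc4 was lower in BC44 than in C57MG (-0.56, adjusted p = 0.00205). Abcc10 was lower in HC11 than in BC44 (0.48, adjusted p = 0.0124, and 0.0709 without BC44 replicate 1) and than in C57MG (-0.47, adjusted p = 0.00842, and 0.0551 without C57MG replicate 2).

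Of 10 tested regulators of transferase genes, 5, 8 and 9 passed in the 3 contrasts, of which 2, 3 and 5 were higher in the line named first. All genes passed in 47.7%, 71.7% and 70.5%, near the first and second of these counts, and toward the line named first in 24.7%, 37.5% and 37.4%. Ahr, the aryl hydrocarbon receptor, was highest in C57MG, at 12.2 and 11.7 RPKM, and lowest in HC11, at 2.51 and 3.17 (-1.76, SE 0.13, limma adjusted p = 1.18e-05). Keap1, the inhibitor of NRF2, was highest in BC44 (24.9 and 27.1 RPKM, 0.89 over HC11, adjusted p = 0.00110). Mafk and Mafg, small Maf genes whose proteins pair with NRF2, were lower in C57MG: Mafk was 1.81 and 1.62 higher in BC44 and HC11, and Mafg 1.18 higher in BC44 (adjusted p = 1.05e-05, 2.18e-05 and 2.17e-05). Maff was highest in HC11 (-1.80 for BC44 against HC11 and 1.63 for HC11 against C57MG), as was Cebpb, at 284.0 and 238.3 RPKM there (-1.72 for BC44 against HC11), where BC44 was also below C57MG (-1.16).

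Enzymes known to be induced alongside transferases did not share 1 direction. Of 14 tested, 9, 12 and 13 passed in the 3 contrasts, with 6, 4 and 5 higher in the line named first and medians of 0.15, -0.86 and -0.51. The all-gene shares there were 47.7%, 71.7% and 70.5%, and toward the line named first 24.7%, 37.5% and 37.4%. Nqo1, a quinone reductase and a classical NRF2 target, was at 47.8 and 54.5 RPKM in BC44 and at most 1.94 elsewhere (4.15 over HC11 and 4.94 over C57MG, limma adjusted p = 2.11e-06 and 2.86e-07). Cbr1 and Cbr3, carbonyl reductases, were likewise highest in BC44, by 3.85 and 2.97 over C57MG (adjusted p = 8.91e-07 for Cbr1). Cbr3 passed the filter on low values through BC44 alone and is described without a p-value but remains in the counts. Cbr1 was also 3.08 higher in HC11 than in C57MG. Ephx1, the microsomal epoxide hydrolase, was at 228.1 and 249.5 RPKM in C57MG, 46.1 and 45.2 in BC44, with 2.61 and 2.16 in HC11 (3.79 for BC44 over HC11 and -6.15 for HC11 against C57MG, adjusted p = 5.71e-07 and 6.57e-08). Aldh3a1, an aldehyde dehydrogenase, had that order too, with 84.7 and 146.1 RPKM in C57MG, 26.4 and 41.8 in BC44 and 2.58 and 3.67 in HC11. HC11 thus had the lowest mean of both genes.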

How the data were processed

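Poly(A) RNA was sequenced as directional libraries from an input of 1 µg, per the labels' protocols. The authors deposited 1 RPKM value per gene and library (6 libraries, 11417 genes, 3 decimals). STAR and mm9 are named in the submitters' processing notes. The read counter, gene lengths and filter are not given in the sources used here. Promoters come from build GRCm38.p6, and no coordinates were converted.

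After a log2(RPKM + 1) transform, a limma model (version 3.58.1, R 4.3.3, eBayes with trend) was fitted with all 6 libraries sharing 1 spread. Of the genes, 10759 reached 1 RPKM in at least 2 libraries and entered the fit, and 658 did not. P-values were two-sided and Benjamini-Hochberg adjusted over all tested genes in each of 3 contrasts, with a threshold of 0.05. The fit was tested on simulated data. An exact permutation of 2 against 2 libraries cannot pass that threshold and was not used.

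Depth was estimated from low values times exonic gene length (GENCODE M21, GRCm38). Between 76.5% and 83.8% of 179 to 279 low values per library lay within 0.15 of a whole read at 14210000 (HC11 replicate 2) to 18510000 (HC11 replicate 1) reads, where 30.0% would by chance. The lengths are not exact: length-weighted RPKM summed to 1286564 to 1359835, above the 1000000 allowed, so read numbers and the floor of 3 reads are estimates. Replicates shared at most 252 identical values and were kept as separate libraries.

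Genes private to a line had a mean of at least 20 RPKM there, at most 2% of that in the third line and at most 5% in the other replicate. Subtraction, chosen after seeing the data, was applied where at least 80% of them lay within 2-fold of the median share.

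Named were all members, relatives reaching a mean of 1 RPKM in some line, per list and contrast the 3 largest passing differences without overlap, and the 3 genes nearest Gsta3. The members and lists were chosen with earlier results of these data known. Shared sequence was measured as 50-base windows of the longest transcript found in another gene's transcripts. Alternatives were other pseudocounts, filters, scalings, variance models, a block for the replicate number and omission of single libraries. Other software was matplotlib 3.10.9, scipy 1.17.1, pandas 2.3.3, numpy 2.4.6 and Python 3.11.15.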

Additional observations from a re-analysis of the deposited data

How the results depend on the processing

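Across 16 alternatives the number of the 9 tested transferases passing ranged from 4 to 6 for BC44 against HC11, 6 to 8 for BC44 against C57MG and 7 to 9 for HC11 against C57MG. Leaving out 1 library gave 4 to 6, 7 to 8 and 7 to 9, and leaves a line with a single library that is assumed to vary like the others. Over all genes, leaving out 1 library gave 3762 to 4776, 6554 to 7944 and 6274 to 7404 calls. Gstt1 was not tested at a mean of at least 5 RPKM. Scaling moved the median of all genes by less than 0.1.

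With the replicate block 6, 8 and 9 transferases and 5350, 7875 and 7721 genes passed, against 6, 7 and 9 and 5129, 7713 and 7590 without it. The gain was Gstm5 in BC44 against C57MG (-0.36, adjusted p = 0.0281). Across 10759 genes the deviations of same-numbered libraries correlated at 0.354 between BC44 and HC11, at -0.039 between BC44 and C57MG and at 0.038 between HC11 and C57MG. The labels do not say what a number stands for, and with 2 libraries a line whether it marks a shared batch or day was not tested.

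One difference that had passed changed direction: Gstm1 in BC44 against HC11 went from 1.14 (adjusted p = 0.0238) to -0.51 (adjusted p = 0.555) with the other line's signal subtracted. The C57MG signal was subtracted from BC44 replicate 2 only, not from BC44 replicate 1 or the HC11 libraries. The remaining changes of direction were in differences that had not passed or, for Gsta3, were not tested. Ltc4s in BC44 against HC11 was -0.04 after the same subtraction. Gstcd in BC44 against C57MG was -0.01 under median-ratio scaling, and Clic3 in HC11 against C57MG -0.05 under quantile normalization. Without 1 library the ranges that crossed 0 were -0.27 to 0.03 for Gstp1 in BC44 against HC11, and -0.05 to 0.50 for Gsta4 and -0.04 to 0.07 for Gstcd in BC44 against C57MG. In HC11 against C57MG they were -0.78 to 0.06 for Gsta3, -0.10 to 0.0013 for Gstcd, -0.22 to 0.28 for Gstk1, -0.04 to 0.17 for Ptges2, -0.04 to 0.18 for Clic3 and -0.31 to 0.03 for Gstz1. The cause was not tested. A pseudocount of 0.1 moved Gsta3 to 8.99, 7.94 and -1.05 from 6.16, 5.80 and -0.36. Among tested members it moved Gstm2 in BC44 against HC11 from 1.95 to 3.83 and Mgst1 there from -1.26 to -2.27, and Gstt1 from 1.24 to 3.86 in BC44 against C57MG and from 2.66 to 5.76 in HC11 against C57MG. All 4 stayed past the threshold.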
